A study of Homo sapiens with 18 samples.

Results

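The nuclear-encoded genes of the respiratory chain are described here in 3 head and neck squamous carcinoma (HNSCC) cell lines in which EHF, an ETS family transcription factor of epithelia, was raised or lowered. Members were chosen by name from the gene rows of the deposited count tables. The naming rule uses no measured values, but it was set with earlier results of these data known. They are SDHA, SDHB, SDHC, SDHD and CYC1 and every symbol that begins with NDUFA, NDUFB, NDUFC, NDUFS, NDUFV, UQCR, COX4, COX5, COX6, COX7, COX8 or ATP5, without the NDUFAF assembly factors. The rule took 93 of 23710 rows. By gene name 41 were assigned to complex I, 4 to complex II, 11 to complex III, 17 to complex IV and 20 to complex V. By role they are 25 core subunits, 51 accessory subunits, 8 isoforms of restricted tissues or roles and 9 related loci such as pseudogenes and readthrough transcripts. The symbols are the older ones of the tables, so that ATP5G1 stands for the gene now called ATP5MC1.

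RNA was sequenced from A253 (3 control and 3 EHF overexpression libraries), SCC25 (2 and 2) and CAL27 (2 control libraries and 4 EHF knockdown libraries). The 4 knockdown libraries come from 2 knockdowns, called sh 64 and sh 65 as in the count table, with 2 libraries each. Overexpressing A253 and SCC25 cells were grown with doxycycline and their controls in regular medium without it, so EHF and the drug cannot be told apart in these lines, and all CAL27 libraries grew in regular medium. All lines received their recommended medium with serum and antibiotics. The labels do not say whether a line is 1 clone or whether libraries of a group came from separate cultures, so p-values measure only the spread between these libraries, which may be technical.

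Complexes I and II pass electrons from NADH and succinate to coenzyme Q, complex III passes them on to cytochrome c, and complex IV passes them to oxygen. Complexes I, III and IV pump protons as they do so, and complex V, the ATP synthase, uses the returning protons to make ATP. All 4 subunits of complex II come from the nucleus, whereas the catalytic centre of complex IV and parts of complexes I, III and V are encoded by mitochondrial DNA and were not analysed here. Every measurement is of messenger RNA, and neither complexes nor respiration were measured.

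EHF had 84.5, 91.4 and 83.2 CPM (counts per 1e6 after TMM scaling of the library total) in the A253 controls and 765, 711 and 633 CPM in the overexpressing libraries. In SCC25 it had 461 and 420.0 CPM in the controls and 859.5 and 892 CPM with overexpression. CAL27 controls held 962 and 992 CPM, the sh 64 libraries 497 and 526 CPM and the sh 65 libraries 444 and 469 CPM. The groups did not overlap in any line, and the log2 change was 3.02 in A253, 0.99 in SCC25 and -1.02 in CAL27 (edgeR quasi-likelihood test, adjusted p = 4.63e-13, 9.11e-13 and 1.35e-08). A253 therefore saw a much larger relative rise than SCC25, and the knockdown in CAL27 was partial. Library totals ran from 7068155 to 19962159 counts.

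The squamous label was checked with 10 epithelial markers such as KRT5, KRT14 and TP63, of which none was at 0 in any group. Their summed level was 13853 to 14749 CPM in A253 controls and 12098 to 13080 CPM with EHF, and 16083 to 16820 CPM in SCC25 controls and 16179 to 16528 CPM with EHF. In CAL27 it was higher in every knockdown library (9989 to 12215 CPM) than in both controls (7338 to 7656 CPM). KRT5, KRT14, KRT6A, TP63, PKP1, DSG3 and ITGB4 had higher means with both knockdowns. SFN and EPCAM were near level, and CDH1 had a mean of 260 CPM in the controls, 247 CPM with sh 64 and 241 CPM with sh 65. The part of this shift in the CAL27 results was not tested. Summed markers of endothelium stayed at or under 9.72 CPM and those of muscle at or under 3.67 CPM in all libraries. Salivary acinar markers summed to 15.3 to 46.4 CPM in CAL27 and to at most 0.147 CPM in A253 and SCC25. In SCC25 the 6 fibroblast markers summed to 87.8 to 98.5 CPM in the controls and 108 to 111 CPM with EHF, with 0 of 6 at 0, and the 6 leukocyte markers to 31.7 to 34.6 CPM and 39.3 to 46.0 CPM, with 1 of 6 at 0. Fibroblast markers in CAL27 summed to 8.08 to 8.96 CPM in the controls, 14.2 to 16.7 CPM with sh 64 and 8.73 to 9.32 CPM with sh 65. In A253 they lay between 9.11 and 11.2 CPM in the controls and between 6.83 and 7.90 CPM with EHF, and leukocyte markers between 5.23 and 5.81 CPM and between 8.97 and 10.4 CPM. The part of these shifts in the results was not tested.

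Promoters are shown first because EHF belongs to a family of factors that bind a GGAA core. RefSeq promoter windows of build GRCh38.p14, from 250 bases before to 50 after a gene start, were matched to 71 of the 93 members by symbol or synonym, which gave 85 windows. The ETS core CCGGAAG, searched on both strands, lay in 24.7% of these member windows and in 10.3% of all 35116 windows of the same length. Its longer form CCCGGAAG, which contains the core, lay in 9.41% against 3.9%. The core of NRF1, GCGCANGCG, known as a site of nuclear respiratory factor 1 in such promoters, lay in 27.1% against 7.52%. The YY1 core ATGGCGNC was present in 20% against 5.47% and the SP1 box GGGCGG in 58.8% against 45.0%. These are matches of letters and no binding was measured here; the EHF ChIP library of the study was not analysed here.

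For 6 members the 100 bases that end just before the gene start are printed. They are 5 of the 6 members that were lower with EHF in SCC25 and higher with knockdown in CAL27, and ATP5G1, which had the largest fall in SCC25. Capitals mark the ETS core (read as CTTCCGG on the printed strand in COX6B1, COX8A and UQCRH) or the NRF1 core (ATP5I), and all other bases are in lower case. Each is written 5′ to 3′ along its gene.
ATP5I (now ATP5ME, chr4:674277-674376, minus strand): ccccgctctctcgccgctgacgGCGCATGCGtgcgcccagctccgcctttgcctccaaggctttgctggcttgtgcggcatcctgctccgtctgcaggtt
COX6B1 (chr19:35648223-35648322, plus strand): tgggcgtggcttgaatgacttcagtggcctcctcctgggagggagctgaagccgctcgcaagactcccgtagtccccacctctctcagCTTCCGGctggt
COX8A (chr11:63974520-63974619, plus strand): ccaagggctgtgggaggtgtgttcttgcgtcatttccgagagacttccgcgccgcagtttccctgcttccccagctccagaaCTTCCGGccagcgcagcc
NDUFB3 (chr2:201071901-201072000, plus strand): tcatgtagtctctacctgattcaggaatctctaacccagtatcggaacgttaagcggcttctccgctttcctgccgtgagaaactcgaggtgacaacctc
UQCRH (chr1:46303598-46303697, plus strand): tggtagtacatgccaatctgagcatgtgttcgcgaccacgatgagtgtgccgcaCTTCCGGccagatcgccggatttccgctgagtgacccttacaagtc
ATP5G1 (now ATP5MC1, chr17:48892687-48892786, plus strand): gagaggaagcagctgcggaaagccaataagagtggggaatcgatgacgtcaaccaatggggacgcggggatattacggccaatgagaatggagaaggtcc
In this stretch COX6B1, COX8A and UQCRH each held 1 ETS core, ATP5I held 1 NRF1 core, and NDUFB3 and ATP5G1 held neither; ATP5I has its ETS core outside the printed stretch. Of the windows of members that rose in CAL27, 12 of 25 had the ETS core (48.0%), as against 9 of 53 (17.0%) of the other tested members. For members that fell in SCC25 the shares were 8 of 29 (27.6%) and 13 of 51 (25.5%). The YY1 core went the other way in CAL27, at 2 of 25 windows (8.0%) of members that rose and 15 of 53 (28.3%) of the others. None of these shares was tested, and they rest on few windows.

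Levels between genes are given in TPM, which divides counts by gene length. The members together made up 21002 to 22437 TPM in the A253 controls, 24229 and 25135 TPM in the SCC25 controls and 21236 and 21865 TPM in the CAL27 controls. Complexes I and IV contributed most. In the SCC25 controls, for example, complex I summed to 8147 ± 172 TPM, complex IV to 7298 ± 280 TPM, complex V to 5330 ± 108 TPM, complex III to 3004 ± 94.5 TPM and complex II to 903 ± 13.6 TPM (SD, n = 2). Complex II, the enzyme shared with the citric acid cycle, had the lowest sum in every line over its 4 genes, at 539 ± 9.44 TPM in A253 controls (SD, n = 3) and 587 ± 16.3 TPM in CAL27 controls (SD, n = 2). No test was made of these differences between lines.

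The common isoforms prevailed over the tissue-restricted ones in all 3 lines. COX8A, the common isoform of subunit 8, was the most abundant of the complex IV isoform genes, at 1377 to 1586 TPM in A253 controls, 989 and 1149 TPM in SCC25 controls and 1275 and 1303 TPM in CAL27 controls. COX4I1, the common subunit 4, had 502 to 582, 729 to 752 and 616 to 627 TPM in the same order. Its lung counterpart COX4I2 summed to 2 counts in A253, 0 in SCC25 and 2 in CAL27 over all libraries. COX6A2, the heart and muscle form of subunit 6A, had 0 counts in all 16 libraries, and COX7A1, the muscle form of subunit 7A, had 20, 6 and 13 counts. COX6B2, a testis form, was low but present, at 3.33 to 4.61 TPM in A253 controls and 1.43 and 1.68 TPM in CAL27 controls. NDUFA4L2, a paralog of NDUFA4 known for its induction by hypoxia, stood at 0.885 to 2.18 TPM in A253 controls beside 219 to 222 TPM of NDUFA4, a subunit named for complex I and found in complex IV. Of the restricted forms COX6B2 could be tested in all 3 lines and NDUFA4L2 in A253 and SCC25, and neither passed.

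**Figure D1:**
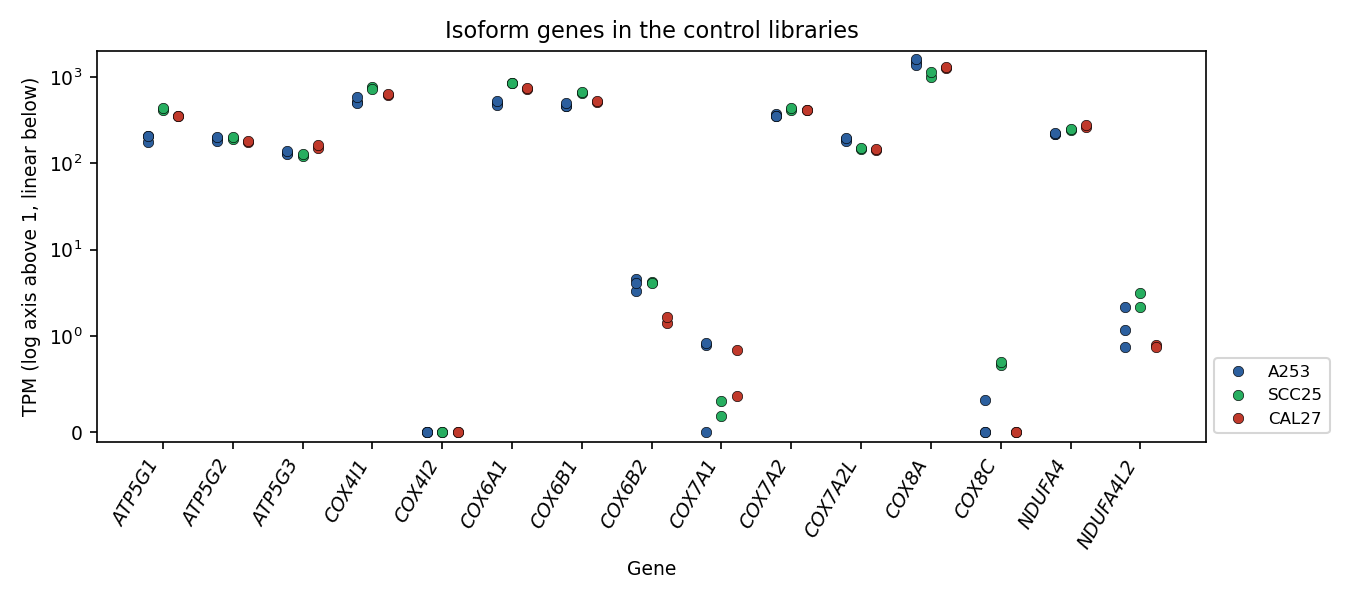
TPM of isoform genes in the control libraries of A253 (blue), SCC25 (green) and CAL27 (red), 1 point per library, on an axis that is logarithmic above 1 and linear below. The common isoforms lie above 100 TPM and the tissue-restricted ones under 10 TPM in all 3 lines.

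ATP5E and UQCRHL stood far apart between lines. ATP5E, the epsilon subunit of the ATP synthase stalk, had 9.67 to 15.6 TPM in A253 controls, 10.4 and 14.6 TPM in SCC25 controls but 359 and 378 TPM in CAL27 controls. UQCRHL, an intronless paralog of UQCRH, had 0 to 0.657 TPM, 1.67 and 1.84 TPM, and 34.1 and 39.5 TPM in the same order. Both have near-identical copies in the genome between which reads can be split, and whether the counting differed between the tables was not tested. The 3 genes of subunit c (ATP5G1, ATP5G2, ATP5G3) encode 1 mature protein and UQCRB has a pseudogene in the table. Whether reads were split among these relatives was not tested either.

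After a filter on low counts, 81 members were tested in each line, and 12 were not. A gene was called at an adjusted p under 0.05 over all genes tested. In SCC25, 31 of 81 members were lower with EHF overexpression and 0 were higher, with 45 at an unadjusted p under 0.05. Among all 14120 genes tested 11.6% were lower and 12.2% higher, against 38.3% of the members lower. The median log2 change was -0.14 over the members and 0.003 over all genes, and 76 of the 81 members had a negative change. In CAL27, 24 of 81 members were higher with knockdown and 0 were lower, with 40 at an unadjusted p under 0.05. Among all 13629 genes 9.88% were higher and 8.91% lower, against 29.6% of the members higher, and the members' median was 0.16 beside 0.003. In A253, 3 of 81 members were higher with EHF (3.7%) and 0 lower, with 16 at an unadjusted p under 0.05; of all 14503 genes 5.03% were higher and 2.94% lower, so the members' share lies near the background. DESeq2 likewise called 0 members lower in A253 and CAL27 and 0 higher in SCC25. In bulk RNA, a change in the mix of cells and a change in RNA per cell cannot be told apart.

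**Figure D2:**
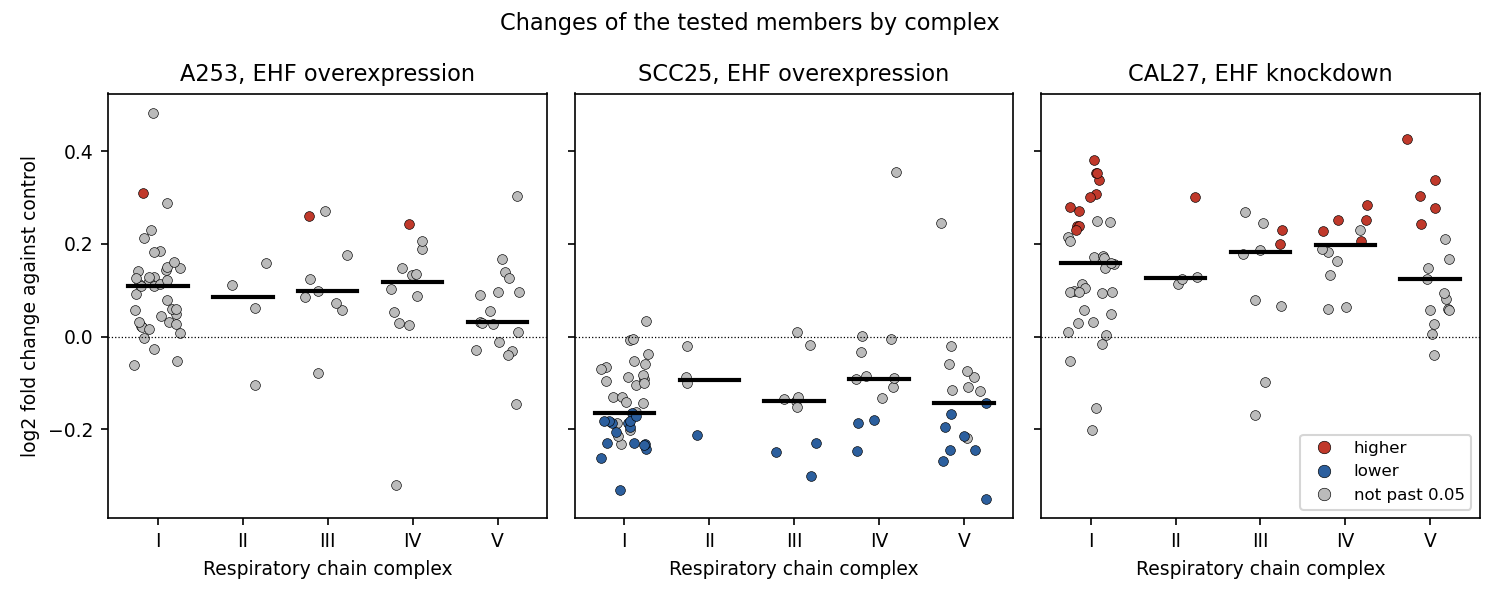
Log2 fold change of each tested member against its control (vertical axis) by complex (horizontal axis) in the 3 lines; red and blue points passed an adjusted p of 0.05, grey points did not, and bars are medians. Medians of all 5 complexes lie below 0 in SCC25 and above 0 in A253 and CAL27.

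In SCC25 16 of 39 tested members of complex I were called lower (41.0%), with 11.6% of all genes lower. Complex III had 3 of 9 (33.3%) and complex V 8 of 17 (47.1%). Complex IV had 3 of 12 (25%) and complex II 1 of 4 (25%). In complex I the largest fall was that of NDUFA9, an accessory subunit, which had 108 and 120.5 CPM in the controls and 89.4 and 92.0 CPM with EHF (log2 change -0.33, SE 0.06, adjusted p = 0.000204). NDUFB9, another accessory subunit, went from 242 and 262 to 206 and 214 CPM (log2 change -0.26, SE 0.052, adjusted p = 0.000497). NDUFV1, which binds NADH and its first electron acceptor FMN, had 213 and 233 CPM and then 188 and 192 CPM (log2 change -0.23, SE 0.052, adjusted p = 0.00165). Both overexpressing libraries lay below both controls for each of these genes. Genes called here and below passed a test on these same libraries, so groups that lie apart add no support to a call. NDUFS1, the large iron-sulfur subunit of the same arm, was near level, at 180.0 and 182 CPM and 178 and 175 CPM (log2 change -0.036, SE 0.049, adjusted p = 0.653). The other complex I members that fell included NDUFA4, NDUFA6, NDUFA8, NDUFAB1, NDUFB2, NDUFB3, NDUFB8, NDUFC1, NDUFS3, NDUFS5, NDUFS6 and NDUFS8. NDUFA4 is counted here by its name, though it is found in complex IV.

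In complex II only SDHD, a membrane anchor, passed the test, with 237 and 253.3 CPM in the SCC25 controls and 207 and 216 CPM with EHF (log2 change -0.21, SE 0.051, adjusted p = 0.00334). The flavoprotein SDHA had a log2 change of -0.088, the iron-sulfur subunit SDHB -0.10 and the other anchor SDHC -0.019, and none of these passed. In complex III CYC1, which encodes cytochrome c1, fell from 331 and 354 to 266 and 290.0 CPM (log2 change -0.30, SE 0.054, adjusted p = 0.000167). UQCRC1, a core protein of the matrix side, went from 221 and 241 to 189 and 199.9 CPM (log2 change -0.25, SE 0.053, adjusted p = 0.00105). The hinge protein gene UQCRH also fell, by 0.23 on the log2 scale, whereas UQCRC2 (-0.14) and the Rieske protein gene UQCRFS1 (-0.13) did not pass. The groups were apart by library for CYC1, UQCRC1 and UQCRH, which were called on these same libraries.

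In complex IV 3 small subunits fell in SCC25. COX8A had 250.1 and 307 CPM in the controls and 239 and 230.4 CPM with EHF (log2 change -0.25, SE 0.077, adjusted p = 0.0366), with 1 control far above the other. COX7B went from 198 and 232 to 198 and 181 CPM (log2 change -0.19, SE 0.066, adjusted p = 0.0471), where the lower control and the higher EHF library differ by under 1 CPM. COX6B1 went from 189 and 209 to 173 and 178 CPM (log2 change -0.18, SE 0.053, adjusted p = 0.0149). The subunits COX4I1 (-0.092), COX5A (-0.11) and COX5B (-0.086) were not called.

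Complex V held the largest fall of all members. ATP5G1, 1 of 3 genes for subunit c of the proton-driven ring, had 133 and 146 CPM in the SCC25 controls and 112 and 108 CPM with EHF, a fall of 21.5% (log2 change -0.35, SE 0.056, adjusted p = 4.8e-05). ATP5G3, the third gene for the same protein, went from 212 and 235 to 187 and 191 CPM (log2 change -0.25, SE 0.053, adjusted p = 0.00129). ATP5G2 had overlapping groups, with 121 and 138 CPM in the controls and 118 and 127 CPM with EHF (log2 change -0.074, SE 0.06, adjusted p = 0.414). So 2 of the 3 subunit c genes fell and no difference between the 3 was tested. ATP5F1, subunit b of the peripheral stalk, went from 369 and 397 to 317 and 320.1 CPM (log2 change -0.27, SE 0.051, adjusted p = 0.00034). The catalytic head moved too, with ATP5A1 (alpha subunit) at -0.20 and ATP5B (beta subunit) at -0.17, and ATP5I, ATP5L and ATP5SL, of which the last is no subunit, were the others that fell.

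**Figure D3:**
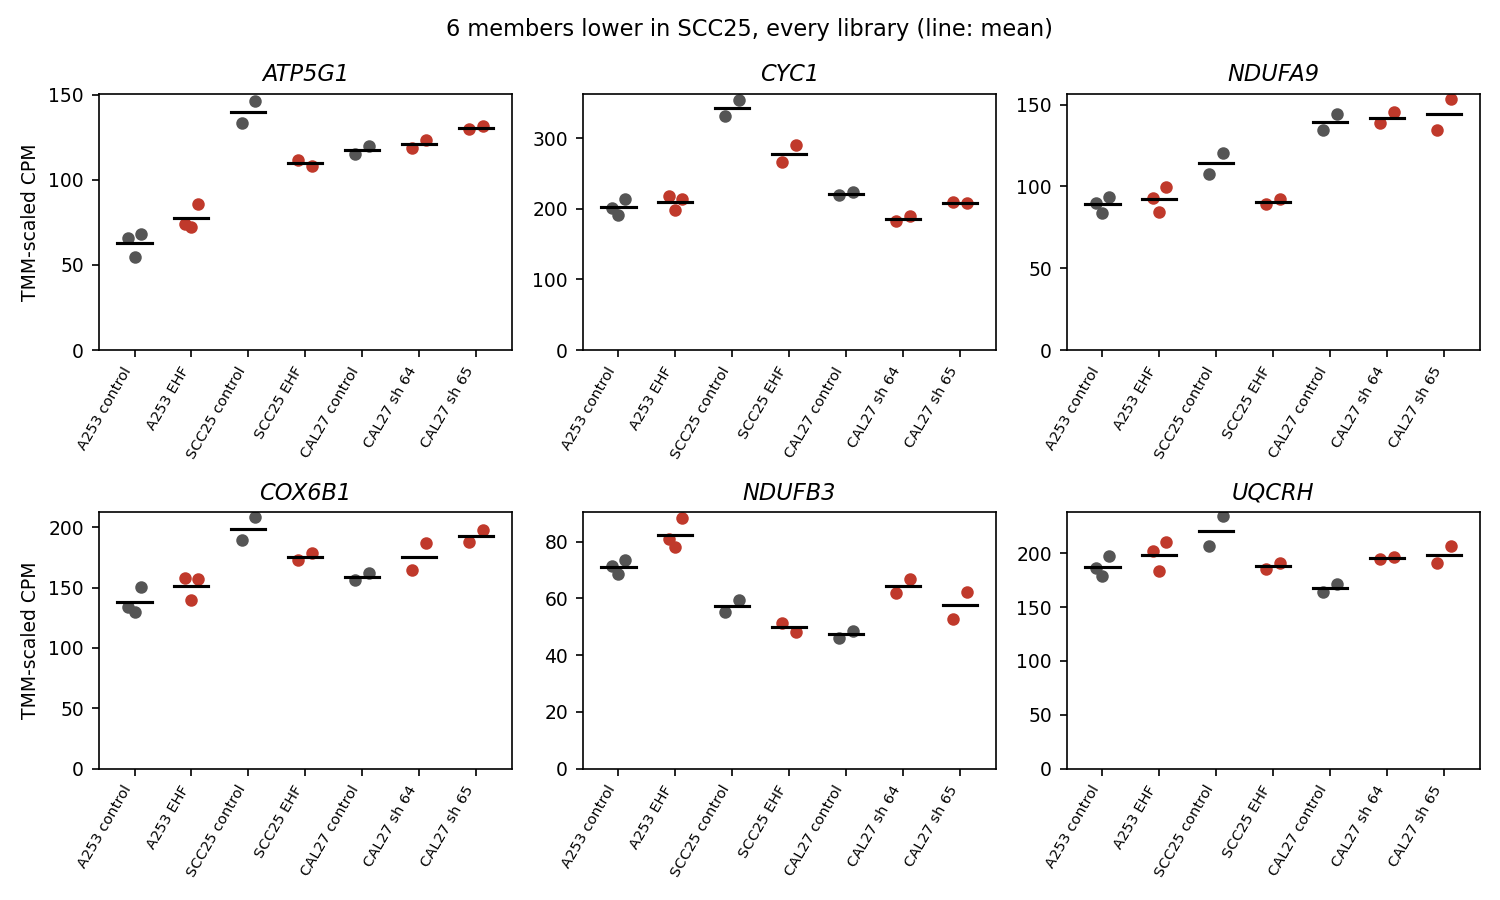
TMM-scaled CPM of 6 members in every library (points; grey for controls, red for EHF-changed libraries; lines are group means) on axes that start at 0. All 6 were called lower in SCC25, and COX6B1, NDUFB3 and UQCRH also lie higher in the CAL27 knockdowns than in the CAL27 controls.

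The count in SCC25 rests on 2 libraries a group. It rose without control replicate 1 and fell without control replicate 2 and without EHF replicate 1 or 2. Each such fit leaves 1 library in a group, taken to vary like the other group. The members' median of -0.14 was then -0.188, -0.084, -0.126 and -0.147, in that order. Over all genes the same medians were 0.002, 0.002, -0.002 and -0.005. DESeq2 called 13 members lower, beside 742 of all 14120 genes.

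In CAL27 11 of 38 tested members of complex I were called higher upon knockdown (28.9%), with 9.88% of all genes higher. Complex IV had 5 of 12 (41.7%) and complex V 5 of 17 (29.4%). Complex II had 1 of 4 (25%) and complex III 2 of 10 (20%). These values are the mean of both knockdowns against the controls. NDUFA7, an accessory subunit of complex I, had 22.3 and 24.9 CPM in the controls, 27.4 and 33.0 CPM with sh 64 and 28.8 and 35.7 CPM with sh 65 (log2 change 0.38, SE 0.11, adjusted p = 0.0252). NDUFB3 had 45.9 and 48.6 CPM, 61.7 and 66.7 CPM and 52.7 and 62.4 CPM in the same order (log2 change 0.35, SE 0.085, adjusted p = 0.0073). For both genes, picked by the test on these libraries, all 4 knockdown libraries lay above both controls. The other complex I members that rose were NDUFA1, NDUFA2, NDUFA3, NDUFA13, NDUFB1, NDUFB4, NDUFB7, NDUFB9 and NDUFB10, all of them accessory subunits. The core subunits, 7 of the 41 members of complex I, include NDUFS1 (0.05) and NDUFV1 (0.03), which did not pass. Accessory subunits are 31 of the 41, and no difference between core and accessory subunits was tested.

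SDHC, an anchor of complex II, had 53.6 and 54.7 CPM in the CAL27 controls, 63.4 and 69.6 CPM with sh 64 and 59.97 and 75.1 CPM with sh 65 (log2 change 0.30, SE 0.089, adjusted p = 0.0249), all above the controls. The other 3 subunits of complex II had log2 changes of 0.13 (SDHA), 0.11 (SDHB) and 0.12 (SDHD) and were not called. In complex III UQCRH went from 164 and 171 CPM to 194 and 197 CPM with sh 64 and 191 and 206 CPM with sh 65 (log2 change 0.23, SE 0.065, adjusted p = 0.0192). UQCRC2, a core protein, went from 302 and 311 CPM to 364 and 358 CPM with sh 64 and 318 and 370.0 CPM with sh 65 (log2 change 0.20, SE 0.068, adjusted p = 0.0479). CYC1 did not share this: it had 219 and 223 CPM in the controls, 182 and 189.6 CPM with sh 64 and 209 and 208 CPM with sh 65, and its mean change was -0.17 (adjusted p = 0.0625, edgeR). All 4 knockdown libraries were below the controls for CYC1.

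Complex IV was represented by 5 small subunits. COX6A1, the common form of subunit 6A, had 210.0 and 220.3 CPM in the controls, 238 and 267 CPM with sh 64 and 262 and 284 CPM with sh 65 (log2 change 0.28, SE 0.069, adjusted p = 0.00743). COX8A had 331 and 347 CPM, 367 and 384 CPM and 427 and 441 CPM (log2 change 0.25, SE 0.062, adjusted p = 0.00797). COX5B (0.23), COX6B1 (0.21) and COX7C (0.25) were the others, and COX4I1 (0.18) and COX5A (0.065) did not pass. Knockdown and control libraries were apart for all 5, which were picked by the test on these libraries.

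In complex V the largest rise among the members was that of ATP5I, subunit e, with 60.8 and 66.6 CPM in the controls, 92.6 and 81.4 CPM with sh 64 and 82.97 and 86.2 CPM with sh 65 (log2 change 0.43, SE 0.078, adjusted p = 0.000909). ATP5J, subunit F6 of the peripheral stalk, had 56.5 and 58.3 CPM in the controls, 80.7 and 77.3 CPM with sh 64 and 56.4 and 77.6 CPM with sh 65 (log2 change 0.34, SE 0.1, adjusted p = 0.0332), so that 1 sh 65 library lay just under the controls and the groups overlap. ATP5G2 went from 116 and 122 CPM to 148 and 139.7 CPM with sh 64 and 142 and 158 CPM with sh 65 (log2 change 0.30, SE 0.07, adjusted p = 0.00551). It was the 1 subunit c gene that rose, since ATP5G1 (0.094) and ATP5G3 (0.056) did not pass. ATP5H and ATP5O of the peripheral stalk rose by 0.28 and 0.24, while the head subunits ATP5A1 (0.028) and ATP5B (0.059) were not called.

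On its own, sh 64 had 11 members higher (13.6%, with 8.76% of all genes higher) and 1 lower (1.23%, with 6.89% of all genes lower), which was CYC1 (log2 change -0.25, SE 0.072, adjusted p = 0.0228). With sh 65 there were 19 members higher (23.5%, with 7.62% of all genes higher) and 0 lower (7.01% of all genes lower), with 38 members at an unadjusted p under 0.05 in either direction. These 2 contrasts share their controls. Directly compared, sh 65 and sh 64 differed in 1 member, higher with sh 65, while 2.21% of all genes were higher and 3.13% lower. It was NDUFS7, an iron-sulfur core subunit next to the quinone site, with 27.7 and 25.33 CPM with sh 64, 36.8 and 35.2 CPM with sh 65 and 27.2 and 28.2 CPM in the controls (log2 change of sh 65 over sh 64 0.43, SE 0.11, adjusted p = 0.0269); it was singled out after its values were seen. DESeq2 called 13 members higher in CAL27, beside 782 of all 13629 genes. The CAL27 count depends on the controls, for it fell when control replicate 1 or control replicate 2 was left out. Each such fit keeps 1 control library. In neither fit did the share of members called higher exceed that of all genes. The members' median log2 change was 0.118 in the first fit and 0.197 in the second, beside 0.006 and -0.0005 over all genes.

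In A253 the members that rose with EHF were accessory subunits of 3 complexes. NDUFA3 of complex I had 23.2, 21.4 and 24.8 CPM in the controls and 28.1, 26.8 and 31.01 CPM with EHF (log2 change 0.31, SE 0.087, adjusted p = 0.0352). UQCR10 of complex III had 83.4, 79.5 and 87.8 CPM and 98.3, 95.5 and 106 CPM (log2 change 0.26, SE 0.067, adjusted p = 0.0213). COX7B of complex IV had 308, 290.5 and 330.5 CPM and 362, 348 and 388 CPM (log2 change 0.24, SE 0.067, adjusted p = 0.0329). The groups do not overlap for these 3, which the test on the same libraries picked. ATP5G1, at 65.9, 54.6 and 68.5 CPM in the controls and 74.1, 72.6 and 86.0 CPM with EHF, was as far apart and missed the threshold (log2 change 0.30, SE 0.092, adjusted p = 0.0659). Of the 81 members 69 had a positive change, with a median of 0.095 beside -0.003 over all genes. The median was 0.040 without control replicate 2, 0.049 without EHF replicate 3 and 0.153 without control replicate 3. Without control replicate 1 or 2 or EHF replicate 3 the count of 3 fell to 0. In those fits 439, 670 and 536 of all 14503 genes were called higher. Without EHF replicate 1 the count was 1, beside 627 genes, and without EHF replicate 2 it was 8, beside 585 genes.

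Seen by library, the median log2 deviation of the members from the control mean in A253 was 0.004, -0.089 and 0.087 in the controls and 0.114, 0.004 and 0.159 with EHF. The EHF replicate 2 library lies within the range of the controls, so the groups overlap. In SCC25 the medians were -0.055 and 0.055 in the controls and -0.142 and -0.125 with EHF, and in CAL27 they were -0.037 and 0.037 in the controls, 0.115 and 0.179 with sh 64 and 0.102 and 0.246 with sh 65. In both of these lines the groups are apart. Control replicates 2 and 3 of A253, at -0.089 and 0.087, lie further apart than the members' median change of 0.095 in that line.

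**Figure D4:**
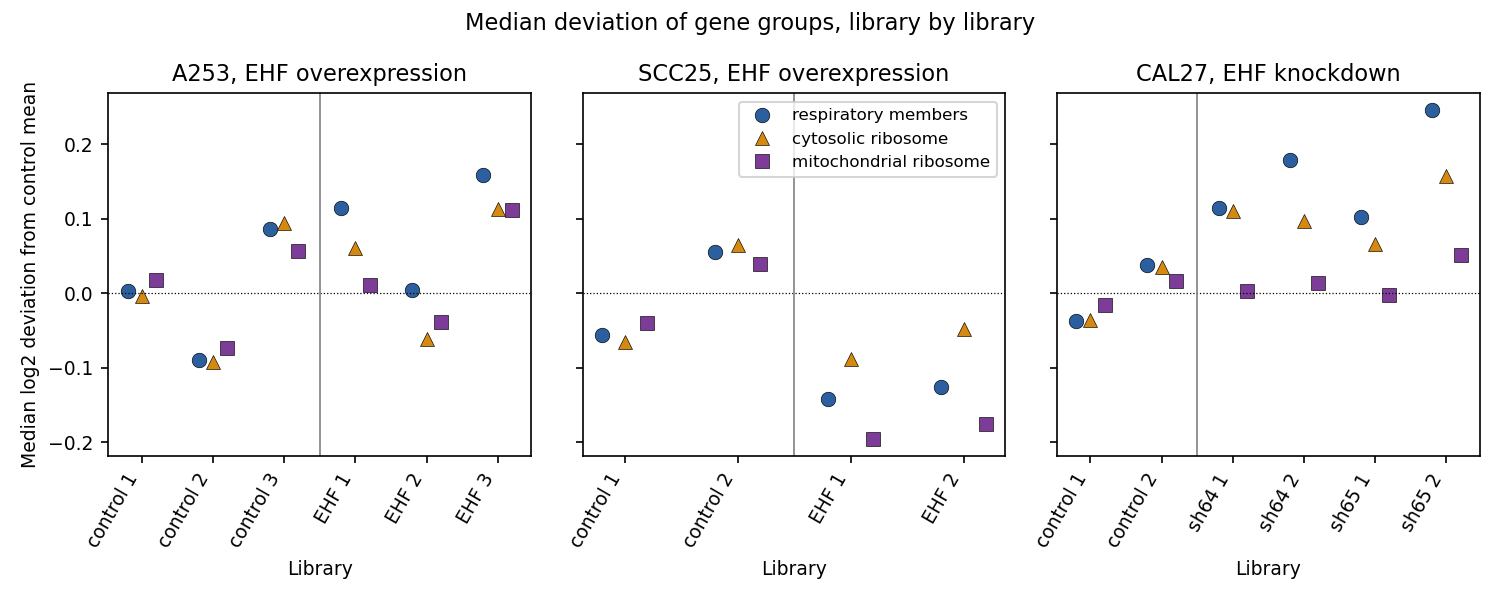
Median log2 deviation from the control mean (vertical axis) of the respiratory members (circles), the cytosolic ribosome genes (triangles) and the mitochondrial ribosome genes (squares) in each library, controls to the left of the grey line. The members lie below 0 in both EHF libraries of SCC25, from -0.142 to -0.125, and above 0 in all 4 CAL27 knockdown libraries, from 0.102 to 0.246.

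Genes of the cytosolic ribosome, also short and abundant, had library medians of -0.093 to 0.094 in A253 controls and -0.061 to 0.114 with EHF, -0.065 and 0.065 in SCC25 controls and -0.088 and -0.048 with EHF, and -0.035 and 0.035 in CAL27 controls and 0.067 to 0.158 with knockdown. Of their 78 tested genes 12 fell in SCC25 (15.4%, beside 11.6% of all genes), with RPS26 as the largest fall (log2 change -0.33, SE 0.06, adjusted p = 0.00018), and 11 rose in CAL27 (14.1%, beside 9.88% of all genes), with RPS16 as the largest rise at a mean of at least 2 log2 CPM (log2 change 0.80, SE 0.17, adjusted p = 0.0365). Length moved with the result as well: the interquartile range of the members' gene models was 20% to 51.7% of the length of the median tested gene in SCC25. Among the 1894 other genes of that length range the median change was -0.078, with 18.0% lower and 6.65% higher. In CAL27 the 1821 other genes of the members' length range had a median change of 0.045, with 10.1% higher and 3.84% lower, and in A253 the 1962 such genes had 0.027. Members that rose in CAL27 had a median length of 18.7% of the median tested gene and those not called 36.5%, whereas in SCC25 the same medians were 30.8% for members that fell and 31.6% for the others. The part of length, and of whatever the ribosome genes share with the members, was not tested.

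Core and accessory subunits were both called in SCC25, with 11 of 25 core and 19 of 51 accessory members lower (medians -0.16 and -0.14). In CAL27 5 of 25 core and 19 of 51 accessory members were higher, with medians of 0.094 and 0.20. Over all genes 11.6% were lower in SCC25 and 9.88% higher in CAL27. No difference between the classes was tested, nor the part of gene length in it.

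Set against each other, the 2 overexpression lines differed. The change in SCC25 was below that in A253 for 78 of 82 members, with a median difference of -0.25 beside -0.017 over all 15460 genes. A joint fit with an interaction term called 9 members lower (10.98%, with 3.25% of all genes lower) and 0 higher (2.39% of all genes higher), and 47 members were at an unadjusted p under 0.05. Of the 9 called members the largest difference was at ATP5G1, which was higher in each EHF library of A253 than in any control and lower in both of SCC25 (difference in log2 change -0.67, SE 0.13, adjusted p = 0.00542). The other called members were ATP5F1, COX7B, CYC1, NDUFA6, NDUFA9, NDUFB3, NDUFV1 and UQCR10. COX7B was called in both lines in opposite directions. Baseline EHF differed between these lines as did the size of its rise, and their part in the difference was not tested. The count of 9 fell without SCC25 control replicate 2 and without SCC25 EHF replicate 1 or 2, fits that leave 1 library in a group. The members' median difference was then -0.18, -0.24 and -0.27, in that order, beside 0.0005, -0.014 and -0.032 over all genes. Without A253 control replicate 2 the count was 5, beside 344 of all 15460 genes lower. Without A253 control replicate 3 it was 15, beside 500 genes, and without A253 EHF replicate 2 it was 23, beside 569 genes.

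Overexpression in SCC25 and knockdown in CAL27, which share no library, called 6 members in common, lower in the first and higher in the second: ATP5I, COX6B1, COX8A, NDUFB3, NDUFB9 and UQCRH. They were 19.4% of the 31 members that fell in SCC25, where 30.0% of the 80 members tested in both lines rose in CAL27, and 25% of the 24 that rose in CAL27, where 38.8% of the 80 fell in SCC25. The overlap is thus no larger than the shares over all members. Over all 12951 genes tested in both lines, 8.4% of those lower in SCC25 were higher in CAL27, beside 10.0% of all. UQCRH went from 207 and 235 CPM to 186 and 191 CPM in SCC25, beside the CAL27 values above. NDUFB3 went from 55.2 and 59.4 to 51.4 and 48.2 CPM in SCC25 (log2 change -0.21, SE 0.067, adjusted p = 0.0277). ATP5I went from 66.9 and 77.8 to 62.7 and 59.4 CPM in SCC25 (log2 change -0.25, SE 0.069, adjusted p = 0.0103). The 6 depend on single libraries: without SCC25 control replicate 2 NDUFB9 alone of them passed in SCC25, and without CAL27 control replicate 1, or without replicate 2, ATP5I alone passed in CAL27. Without SCC25 EHF replicate 2 NDUFB3 and ATP5I did not pass in SCC25, and without EHF replicate 1 COX6B1 did not. With DESeq2 UQCRH was the 1 member of the 6 that passed in both lines. Other members did not pair in this way: CYC1, NDUFA9, ATP5F1 and ATP5G1, which fell most in SCC25 with NDUFB9, had CAL27 changes of -0.17, 0.032, 0.0059 and 0.094. Over the 80 members tested in all 3 lines, 59 (73.8%) had a positive change in A253, a negative one in SCC25 and a positive one in CAL27, a sequence that 9.7% of all 12658 genes tested in the 3 lines showed. Most members thus had the same sign with overexpression in A253 and with knockdown in CAL27, which change EHF in opposite directions. The 80 members are not independent of each other. In A253 their library medians overlapped, from -0.089 to 0.087 in the controls and from 0.004 to 0.159 with EHF. Other genes of the members' length range had median changes of 0.027 in A253, -0.078 in SCC25 and 0.045 in CAL27. The cause of the shared signs was not tested.

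**Figure D5:**
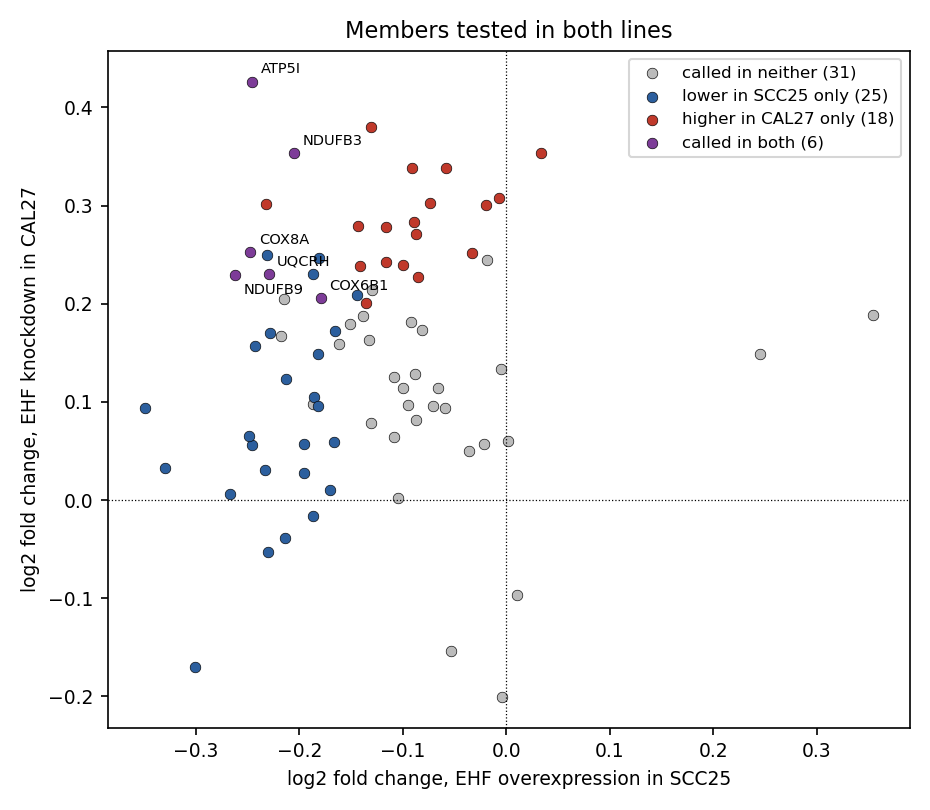
Log2 fold change of each of 80 members tested in both lines with EHF overexpression in SCC25 (horizontal axis) and with EHF knockdown in CAL27 (vertical axis). The 6 members called in both, named in purple, lie at the upper left, lower in SCC25 and higher in CAL27.

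In the wider pathway the lists are set beside the shares over all genes, which were 11.6% lower in SCC25, 9.88% higher and 8.91% lower in CAL27, and 5.03% higher and 2.94% lower in A253. Of 22 genes of the citric acid cycle and electron carriers, 15 fell in SCC25 (68.2%) with a median of -0.18, led by ETFB, a subunit of the electron transfer flavoprotein (log2 change -0.38, SE 0.057, adjusted p = 2.68e-05). In CAL27 3 of the 22 rose (13.6%) and 0 fell, with a median of -0.006, and the largest rise was that of ETFDH, which passes electrons from that flavoprotein to coenzyme Q (log2 change 0.70, SE 0.14, adjusted p = 0.00198). In A253 1 of the 22 rose, GPD2, a glycerol phosphate dehydrogenase of the inner membrane (log2 change 0.25, SE 0.058, adjusted p = 0.0118). Assembly factors, which build the complexes and are not part of them, had 0 called of 46 in A253, 9 lower of 46 in SCC25 (19.6%) with BCS1L, needed for complex III, as the largest fall (log2 change -0.36, SE 0.085, adjusted p = 0.00285), and 1 higher (PET100) and 1 lower (SELRC1, now COA7) in CAL27.

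Mitochondrial ribosome genes, which serve the subunits encoded by mitochondrial DNA, had 33 of 75 lower in SCC25 (44%) with a median of -0.18, 2 higher and 2 lower of 76 in CAL27 (2.6% each) with a median of 0.009, and 2 higher of 75 in A253 (2.7%). The largest fall in SCC25 was that of MRPS12 (log2 change -0.35, SE 0.071, adjusted p = 0.000647). In CAL27 MRPL52 rose most, by 0.36, and MRPS25 had the largest fall, with a log2 change of -0.31, while MRPL24 led in A253 with a log2 change of 0.42. Genes of coenzyme Q synthesis had 3 of 12 lower in SCC25 (25%), where PDSS1 had a log2 change of -0.32, 1 of 12 higher in CAL27 (8.3%), which was COQ9 at 0.24, and 1 of 12 lower in A253 (8.3%). Of the regulators of mitochondrial genes, 4 of 20 fell in SCC25 (20%) and 0 rose, 1 of 21 rose and 3 fell in CAL27 (4.8% and 14.3%), and 1 of 20 rose in A253 (5.0%). PPARGC1A, a coactivator of respiratory gene transcription, rose in CAL27 (log2 change 1.53, SE 0.17, adjusted p = 7.6e-06) with a log2 change of 1.43 for sh 64 and 1.62 for sh 65, while its relative PPRC1 fell (log2 change -0.43, SE 0.12, adjusted p = 0.02). TFAM, which packages and transcribes mitochondrial DNA, fell by 0.28 on the log2 scale in SCC25 and by 0.23 in CAL27 (adjusted p = 0.000437 and 0.0188, edgeR); it was chosen after its values were seen. MYC rose in A253 (log2 change 0.51, SE 0.073, adjusted p = 0.00022) and had a log2 change of -0.052 in SCC25. In CAL27 MYC had a log2 change of 0.15 with sh 64 and was lower with sh 65 (log2 change -0.37, SE 0.087, adjusted p = 0.00783), and the 2 knockdowns differed (log2 change of sh 65 over sh 64 -0.52, adjusted p = 0.00135, edgeR). NRF1 and GABPA, factors known to act at promoters of these genes, did not pass in any of the 3 lines, while GABPB2, which encodes a partner subunit of GABPA, had the largest fall of the regulators in SCC25 (log2 change -0.35, SE 0.12, adjusted p = 0.0306).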

How the data were processed

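RNA from 16 libraries of 3 established HNSCC cell lines was sequenced; per the labels' protocols, mRNA was enriched from total RNA before TruSeq library preparation. Per the submitters' processing notes the authors used the hg19 build with Bowtie 1.1.1, TopHat2 2.1.1, featureCounts 1.5.3 and DESeq2 1.12.4; whether counting used strand is not given in the sources used here. The authors deposited raw counts per gene symbol, 1 table per line with 23710 rows, and TPM tables for A253 and CAL27, whose TPM values were used to recover relative gene lengths. The deposited SCC25 TPM table was not used.

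Of the CAL27 count names 696 had been altered, UQCR10 and UQCR11 among them; rows were matched by position, after checking that gene lengths implied by counts and TPM equalled those of A253 within 0.01 (log2) for 18450 of 18450 genes. The zeros of the CAL27 count columns named sh 64 matched TPM columns named sh 65, and the reverse; names of the count table are used, and the labels tie neither to knockdown 1 or 2. TPM were recomputed from counts in all lines.

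Counts were analysed in edgeR 4.0.16 (R 4.3.3): filterByExpr, TMM, robust quasi-likelihood fit per line (all CAL27 groups in 1 fit), two-sided p-values adjusted by Benjamini-Hochberg over all genes tested, threshold 0.05. SCC25 and A253 changes were compared through the line-by-EHF interaction of a fit to both lines. The scripts were tested on simulated data. Alternatives were RLE size factors, library totals alone, DESeq2 1.42.0, no filter, limma 3.58.1 on log2(TPM + 1) or log2(TPM + 0.1), each library left out, and a replicate block. Library totals were 11090976 to 17823293 (A253), 10728569 to 15965279 (SCC25) and 7068155 to 19962159 (CAL27) counts. Replicates of a group differed by more than counting noise. Genes named are the textbook subunits and isoforms and, per comparison and complex, the 2 largest called rises and falls whose mean log2 CPM was 2 or more; of each pathway list, the largest rise and fall. The members, lists and tests were chosen with earlier results of these data known. The CAL27 ChIP and input libraries were not analysed here.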

Additional observations from a re-analysis of the deposited data

Results flagged for a closer look

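Among 38 named members checked in the 4 CAL27 knockdown libraries, 2 passed a rule on the gap between 1 library and the other 3. Chance alone gives this in about 1 of 20 groups of like libraries, but these 4 come from 2 knockdowns. The rule sets the gap against the range, so a small gap can pass where the others agree closely. Replicate 1 of sh 65 was low for both members. ATP5J had 56.4 CPM there and 77.3 to 80.7 CPM in the others, and COX7C had 267 CPM there and 286 to 288 CPM in the others.

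The change with EHF overexpression differed between SCC25 and A253 for 9 members by the interaction term of the joint edgeR fit. The log2 change in SCC25 minus that in A253 was -0.67 for ATP5G1, -0.45 for ATP5F1, -0.44 for COX7B, -0.43 for NDUFB3, -0.41 for UQCR10, -0.39 for NDUFA9, -0.37 for CYC1, -0.37 for NDUFA6 and -0.33 for NDUFV1. All 9 had a positive change in A253 and a negative one in SCC25. Between the 2 knockdowns of CAL27 the log2 change of NDUFS7 differed by 0.43, with sh 65 higher than sh 64.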

How the results depend on the processing

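The members' median kept its sign under each alternative run: it ranged over libraries left out between 0.040 and 0.153 for A253, between -0.188 and -0.084 for SCC25 and between 0.118 and 0.197 for CAL27, and no named member reversed while called. Counts moved more. In A253, members called higher were 3, 0 to 8 with a library left out, 5 with no filter and 6 with the replicate block; genes called higher were 730, 439 to 670 with a library left out, 482 on log2(TPM + 1), 476 on log2(TPM + 0.1) and 329 on unfiltered log2(TPM + 1), and genes lower were 426, 215 to 363, 278 with DESeq2 and 161 on unfiltered TPM. In SCC25, members lower were 31, 15 to 48 with a library left out, 13 with DESeq2 and 3 on unfiltered TPM; genes higher were 1728, 1153 to 1824, 847 with DESeq2, and 1070, 1073 and 345 on the 3 TPM settings, and genes lower were 1642, 1022 to 1841, 742 with DESeq2, and 1036, 1048 and 325 on TPM. In CAL27, members higher were 24, 1 to 35 with a library left out, 13 with DESeq2, and 8, 8 and 1 on TPM, and members lower were 0, 0 to 2 with a library left out, 1 on either filtered TPM setting and 2 with the replicate block; genes higher were 1346, 530 to 1527, 782 with DESeq2, and 737, 756 and 332 on TPM, and genes lower were 1214, 348 to 1470, 699 with DESeq2 and 410 on unfiltered TPM. For SCC25 against A253, members lower were 9, 0 to 23 with a library left out and 19 with the replicate block; genes higher were 369 and 176 to 394, and genes lower 502, 138 to 569 and 269 with DESeq2. The cause was not tested, beyond fewer libraries where 1 was left out.

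Same-numbered libraries did not deviate together throughout (r of -0.24, -0.01 and 0.24 in A253, -0.03 in SCC25, -0.01 and 0.17 in CAL27), so the replicate block was not the main analysis. The median SE of a member's log2 change was 0.074 in A253, 0.057 in SCC25 and 0.075 in CAL27. Members under a mean of 10 CPM had larger SEs, with medians of 0.214 (4 members), 0.254 (3 members) and 0.346 (1 member) beside 0.072, 0.057 and 0.074 for the others, in the same order.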
